A study of Mus musculus with 22 samples.

Results

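The genes described here are 8 transcription factor genes of myeloid cells: Cebpb and Cebpd of the C/EBP family, Spi1 and Ets2 of the ETS family, Klf2, Klf6 and Klf7 of the Krüppel-like family, and Irf2 of the interferon regulatory factors. The list was chosen by measured transcript levels: these genes were picked with their levels in the aGVHD and control libraries already seen. Every difference between those groups given below for a listed gene is therefore a description and carries no test. Of the 8 listed genes, 7 were analysed, of 16849 named genes in the tables. Cebpd was not analysed here. C/EBP, PU.1 (the product of Spi1) and other ETS factors bind the promoters of granule, receptor and cytokine genes as granulocytes mature, and C/EBPβ carries granulocyte production during inflammation in mice. Krüppel-like factors are zinc-finger proteins that bind CACCC and GC-rich boxes. Some of them, KLF2 among them, restrain inflammatory gene expression in mouse myeloid cells.

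Cells came from the terminal ileum of BALB/c recipients aged 7 to 9 weeks, taken 21 days after allogeneic transplantation and counted by CEL-Seq2, a plate-based single-cell method that counts transcripts from the 3' end with molecular identifiers. Every recipient had 2 fractions of 5 Gy before transfer of 5000000 marrow cells from female C57BL/6 donors, themselves 7 to 10 weeks old. The aGVHD group (12 libraries) also received 400000 donor T cells, which cause acute graft-versus-host disease, and the control group (10 libraries) received none. The sort gate was CD45+H2kb+CD11b+Ly6G+, in which H2kb marks donor origin and Ly6G marks neutrophils, and Peyer's patches had been removed. Titles fall into a dated set (8 aGVHD and 6 control libraries) and a G1 set (4 and 4). The labels do not say which animal each library came from, so errors and p-values measure only how libraries vary, part of which may be technical.

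Libraries held 215945 to 360054 transcripts in aGVHD and 45607 to 233719 in control, and 74 to 95 against 11 to 60 barcodes with at least 500 transcripts, called kept cells. Of 1383 kept cells, 688 had at least 5 transcripts of S100a8 and S100a9 together and at most 2 of C1qa, C1qb and C1qc together; these are the S100-high C1q-low cells (564 in aGVHD, 124 in control). The neutrophil gene Csf3r, the G-CSF receptor, was counted in 87.8% of them in aGVHD and 85.5% in control. It was also counted in most of the C1q-positive cells described below. Ly6g itself was counted in 11.5% of S100-high C1q-low cells in aGVHD and 0.806% in control. The summed level of the 14 neutrophil markers was 29131 to 103695 CPM (transcripts scaled to 1e6 named-gene transcripts, the unit of every level below) in aGVHD libraries and 19954 to 38758 in control libraries. These 14 include S100a8 and S100a9, which set the class, so a high sum was partly fixed in advance. Of the 13 macrophage and monocyte markers, C1qa and Mrc1 were at 0 in S100-high C1q-low cells of control libraries. The sum of the 13 was at most 2104 in aGVHD and 1939 in control. They include C1qa, C1qb and C1qc, which the class limits, so a low sum was partly fixed too. Signal of other cells was present in some libraries: the summed level of 8 B and plasma cell markers reached 39080 CPM in aGVHD and 49896 in control, and that of epithelial markers reached 13357 and 59199. The part of these cells in the differences between groups was not tested. No cell was identical between libraries.

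The sequences just before the gene starts are shown for Cebpb, Ets2 and Klf2, which differed between cell classes of the same library. Each line gives the 250 bases before the start on the gene's own strand, from RefSeq for build GRCm38.p6 and written 5′ to 3′. Capitals mark matches, on either strand, to TGACG (the core of a cyclic AMP response element), a MEF2 site (CTA and TAG with 4 bases between them) and CACCC (a Krüppel-like factor box). Adjoining TGACG and CACCC matches share bases in Cebpb and in Ets2.
Cebpb, chr2:167688665-167688914, plus strand: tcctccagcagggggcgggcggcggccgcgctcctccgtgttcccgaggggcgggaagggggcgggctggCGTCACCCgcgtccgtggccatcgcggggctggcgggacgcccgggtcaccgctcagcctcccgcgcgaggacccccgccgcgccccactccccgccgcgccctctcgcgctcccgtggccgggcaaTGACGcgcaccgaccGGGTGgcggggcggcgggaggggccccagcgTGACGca
Ets2, chr16:95702157-95702406, plus strand: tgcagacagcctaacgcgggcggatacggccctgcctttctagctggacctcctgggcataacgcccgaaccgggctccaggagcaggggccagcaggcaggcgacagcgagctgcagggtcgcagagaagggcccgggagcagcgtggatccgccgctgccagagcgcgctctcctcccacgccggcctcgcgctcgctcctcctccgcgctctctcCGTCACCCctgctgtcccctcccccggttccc
Klf2, chr8:72318812-72319061, plus strand: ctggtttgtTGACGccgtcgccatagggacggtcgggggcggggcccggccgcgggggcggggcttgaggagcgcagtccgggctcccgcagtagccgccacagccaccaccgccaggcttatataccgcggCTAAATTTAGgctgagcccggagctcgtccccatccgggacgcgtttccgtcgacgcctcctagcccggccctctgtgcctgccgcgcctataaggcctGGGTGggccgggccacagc

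Cebpb held 3 TGACG matches, and the 2 nearest its start began 53 and 7 bases before it. Ets2 and Klf2 held 1 each. Klf2 also held CTAAATTTAG, beginning 118 bases before its start. Among the 6 listed genes with a RefSeq promoter entry, Klf6, Klf7 and Irf2 had no TGACG match, and the Klf7 entry is set on a start inside the annotated gene (chr1:64029448-64122345). Over all 32851 promoters of this length, TGACG was found in 17.8%, the MEF2 site in 3.2% and CACCC in 52.0%. A match describes letters only and shows no binding. Spi1, which also differed between classes, had no entry and Irf2 was not tested between them, so no link between matches and classes is read. In the same RefSeq annotation, Spi1 lies at chr2:91082374-91115759 on the chromosome that also carries Cebpb, and Irf2 at chr8:46739745-46847458 on that of Klf2.

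The first question was how the listed genes stood in aGVHD against control libraries over all kept cells. Klf7, a factor best known from the mouse nervous system, had the largest difference. Its level was lowest at 192, median 330 and highest at 454 CPM in the 12 aGVHD libraries, against 108, 132 and 231 in the 10 control libraries. In 10 of 12 aGVHD libraries it was above the highest control library, and 7 of 10 control libraries were below the lowest aGVHD library, so the ranges overlapped. The log2 fold change was 0.80 (SE 0.16, limma with title set as a covariate). Within the dated set Klf7 ran from 283 to 454 in aGVHD and from 114 to 231 in control, and within the G1 set from 192 to 273 and from 108 to 158. How many of all genes have separate ranges within a set was not counted, so nothing is read from these ranges.

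The remaining Krüppel-like genes had wider control ranges. Klf6, an early-response gene that in mouse macrophages favours inflammatory activation, was at 928, 1320 and 1792 CPM (lowest, median, highest) in aGVHD and at 0, 892 and 1745 in control. The control library at 0 held 12 cells. Its log2 fold change was 0.47 (SE 0.26). Klf2 was at 422, 657 and 1211 in aGVHD and at 189, 488 and 1481 in control, with a log2 fold change of 0.35 (SE 0.22). The highest Klf2 value of all was in a control library, and 5 of 10 control libraries lay below every aGVHD library.

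Cebpb, which drives granulocyte production under stress, was at 725, 1792 and 2810 CPM in aGVHD and at 757, 1066 and 1924 in control. Of 12 aGVHD libraries, 5 were above the highest control library and 1 was below the lowest. Its log2 fold change was 0.37 (SE 0.17). Spi1 was at 128, 218 and 352 in aGVHD and at 0, 171 and 337 in control, with a log2 fold change of 0.42 (SE 0.22). Ets2, an ETS factor activated by Ras and MAP kinase signalling, was at 468, 753 and 1070 in aGVHD and at 478, 792 and 1212 in control, and its log2 fold change was -0.04 (SE 0.16). Irf2, which competes with IRF1 at interferon response elements, was at 85.5, 148 and 244 in aGVHD and at 97.6, 160 and 229 in control (log2 fold change -0.23, SE 0.21).

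Of the 7 genes, 1 (Klf7) was called in this comparison at an adjusted p of 0.05 (limma, Benjamini-Hochberg), against 8.18% of all 1736 genes tested; since the list was drawn up from this contrast, nothing is read from that count. With cells of very high total or high Kcnq1ot1 left out, the log2 fold change was 0.63 for Klf7, 0.058 for Cebpb, 0.15 for Spi1 and -0.030 for Klf2. In libraries of at least 20 kept cells it was 0.14 for Klf6 and 0.25 for Cebpb. The median log2 fold change was 0.37 over the 7 genes and -0.01 over all genes. The Spi1 log2 fold change was 0.71 (SE 0.26) within dated libraries and -0.21 (SE 0.33) within G1 libraries, and that of Klf2 was 0.65 (SE 0.24) and 0.00 (SE 0.36). The difference between sets was not tested. The dated set alone gave Klf7 a log2 fold change of 0.77, and the G1 libraries gave 0.84. Sums over all kept cells mix the number of cells of a class with the level in each class, and levels within S100-high C1q-low cells are given below. S100-high C1q-low cells made up 54.7% ± 19.9 of kept cells in aGVHD libraries and 32.8% ± 10.6 in control libraries (SD, n = 12 and 10). Mitochondrial transcripts made up 10.6% ± 3.39 of the named-gene transcripts of kept cells in aGVHD libraries and 15.1% ± 3.04 in control libraries (SD, n = 12 and 10), and 9.62% ± 4.01 and 9.65% ± 3.73 of those of S100-high C1q-low cells. The part of this share in the differences was not tested.

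Other genes of these families and their known targets were tested in the same comparison, in which 3.92% of all 1736 genes were called higher and 4.26% lower. Of 14 C/EBP targets 6 were tested and 3 rose in aGVHD: Lcn2 (log2 fold change 2.63, SE 0.81), Hp, which encodes haptoglobin (1.81, SE 0.41), and Il1rn, the interleukin-1 receptor antagonist (0.59, SE 0.16). The gene lists were drawn up with earlier results of these data known, so no call or count of list genes here is independent evidence. Lcn2 is also named in the study's title. Of 18 PU.1 targets 16 were tested and 4 rose, namely the Fc receptor genes Fcer1g (0.82) and Fcgr3 (0.73), Itgam, which encodes the CD11b used in the sort (0.82), and the adaptor Tyrobp (0.53). Among 4 interferon regulatory factors tested beside Irf2, Irf8, a factor of monocytes and dendritic cells, fell (-1.34, SE 0.27). Irf8 is also 1 of 8 dendritic cell markers, whose summed level was lowest at 275, median 556 and highest at 916 CPM in aGVHD libraries, against 468, 1278 and 2289 in control libraries. All 8 were detected in both groups, and the pooled level of Ccr7 was 18.6 CPM in aGVHD and 170 in control. The part of dendritic cells in the Irf8 difference was not tested. None of the 4 Krüppel-like, 2 ETS and 1 C/EBP family genes tested beside the listed ones was called. Of 11 other granulocyte transcription factors tested, Runx3 fell (-0.97, SE 0.28). These calls are from limma at an adjusted p of 0.05, and the summed macrophage and monocyte markers ran from 1148 to 9593 CPM in aGVHD and from 539 to 11249 in control over all kept cells. Within S100-high C1q-low cells limma called none of the list genes: Lcn2 was at 2.05 (adjusted p = 0.42), Hp at 1.19 (0.25), Il1rn at 0.49 (0.29), Fcer1g at 0.41 (0.30), Fcgr3 at 0.66 (0.25), Itgam at 0.48 (0.48) and Tyrobp at 0.36 (0.33). Irf8 and Runx3 were under the low-count filter there.

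**Figure D1:**
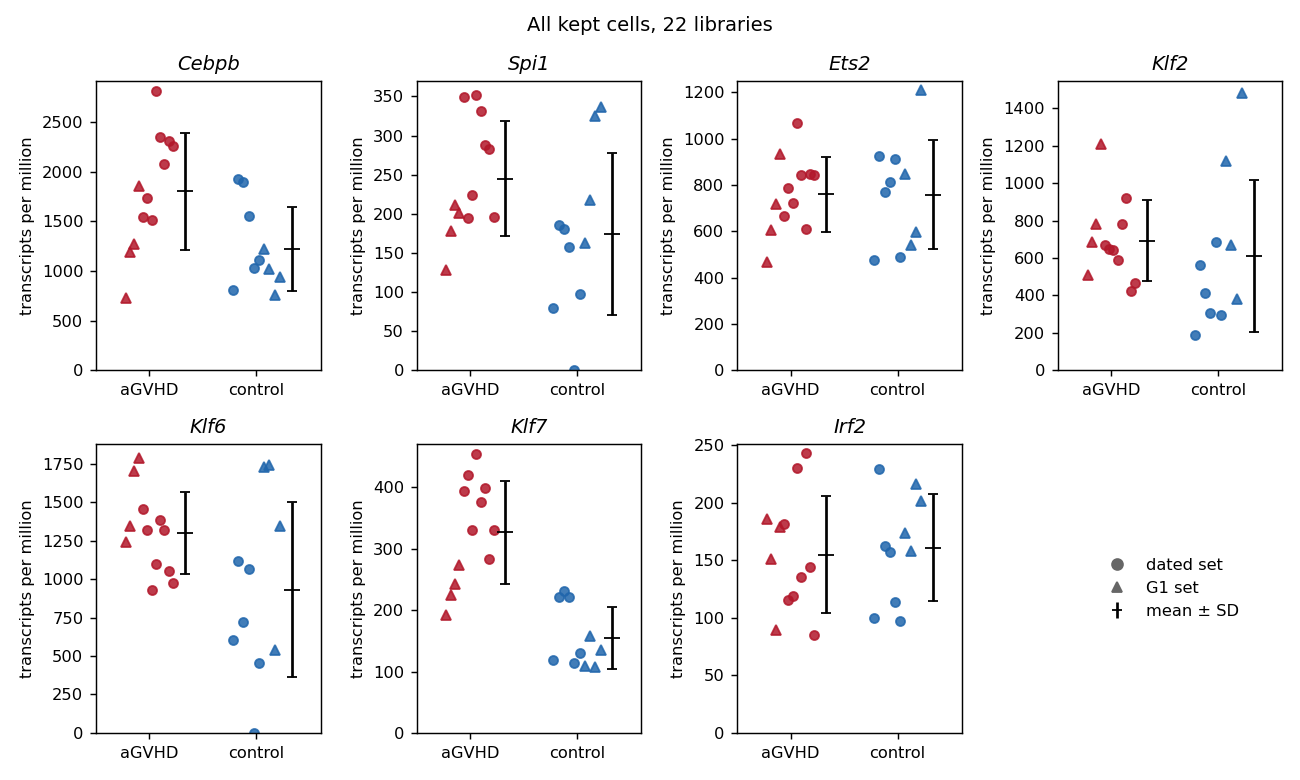
Level of each gene over all kept cells in each library (vertical axis, CPM), aGVHD left and control right; circles are the dated set, triangles the G1 set, and bars the mean ± SD. Klf7 runs from 192 to 454 in aGVHD and from 108 to 231 in control, while the groups of the other 6 genes overlap more widely.

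Within S100-high C1q-low cells, levels were taken in the 12 aGVHD and 7 control libraries with at least 10 of them. The log2 fold changes of Cebpb, Spi1, Klf2 and Klf6 were smaller than over all kept cells, and those of Ets2 and Irf2 more negative. Fewer control libraries entered here, and the change between the comparisons was not tested. Klf7 was at 206, 374 and 638 CPM in aGVHD and at 62.3, 143 and 322 in control, and its log2 fold change of 0.84 (SE 0.32) was close to that over all cells. That value moved with the processing, over 14 alternatives beside leaving out 1 library. The lowest log2 fold change was 0.44, with classes set on cells thinned to 500 transcripts, and the highest was 1.43, with no low-count filter. Of the 12 aGVHD libraries, 7 lay above every control library. Klf7 was counted in 11.7% of these cells in aGVHD (66 of 564, exact 95% binomial interval 9.17% to 14.6%) and in 6.45% in control (8 of 124, 2.83% to 12.3%) after thinning each cell to 500 transcripts; the interval covers counting error over cells only. Without thinning the shares were 40.4% and 29.0%, at median depths of 2454 and 2778 transcripts per cell. In other kept cells the thinned shares were 4.77% in aGVHD and 4.27% in control, at median depths of 1816 and 2160. The Klf7 level in those cells was at 109, 239 and 472 CPM in aGVHD libraries and at 0, 136 and 330 in control libraries. No fit of aGVHD against control was made in other kept cells. Whether the Klf7 difference is particular to S100-high C1q-low cells was therefore not tested. Control sums of S100-high C1q-low cells rested on 49 Klf7 transcripts in all.

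Cebpb was at 910, 2042 and 3061 CPM in aGVHD and at 830, 1853 and 2613 in control, a log2 fold change of 0.07 (SE 0.19). Spi1 was at 139, 272 and 622 in aGVHD and at 115, 272 and 340 in control (0.17, SE 0.28). Ets2 was at 544, 906 and 1146 in aGVHD and at 744, 842 and 1361 in control (-0.28, SE 0.15), and 2 control libraries lay above every aGVHD library. For Spi1, 4 of 12 aGVHD libraries lay above every control library and 3 of 7 control libraries below every aGVHD library, and for Cebpb 3 of 12 and 1 of 7 did. Klf2 had a log2 fold change of 0.11 (SE 0.26), Klf6 of 0.29 (SE 0.21) and Irf2 of -0.44 (SE 0.32). None of the 7 was called, and 0% of the 871 genes tested were: limma called 0 at an adjusted p of 0.05 and 115 had an unadjusted p under 0.05. The median log2 fold change of all genes was -0.05, and with scaling to the total alone it was 0.13. Relative to that median Klf7 was at 0.90 and, with scaling to the total, at 0.94, and Ets2 was at -0.23 and -0.25.

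**Figure D2:**
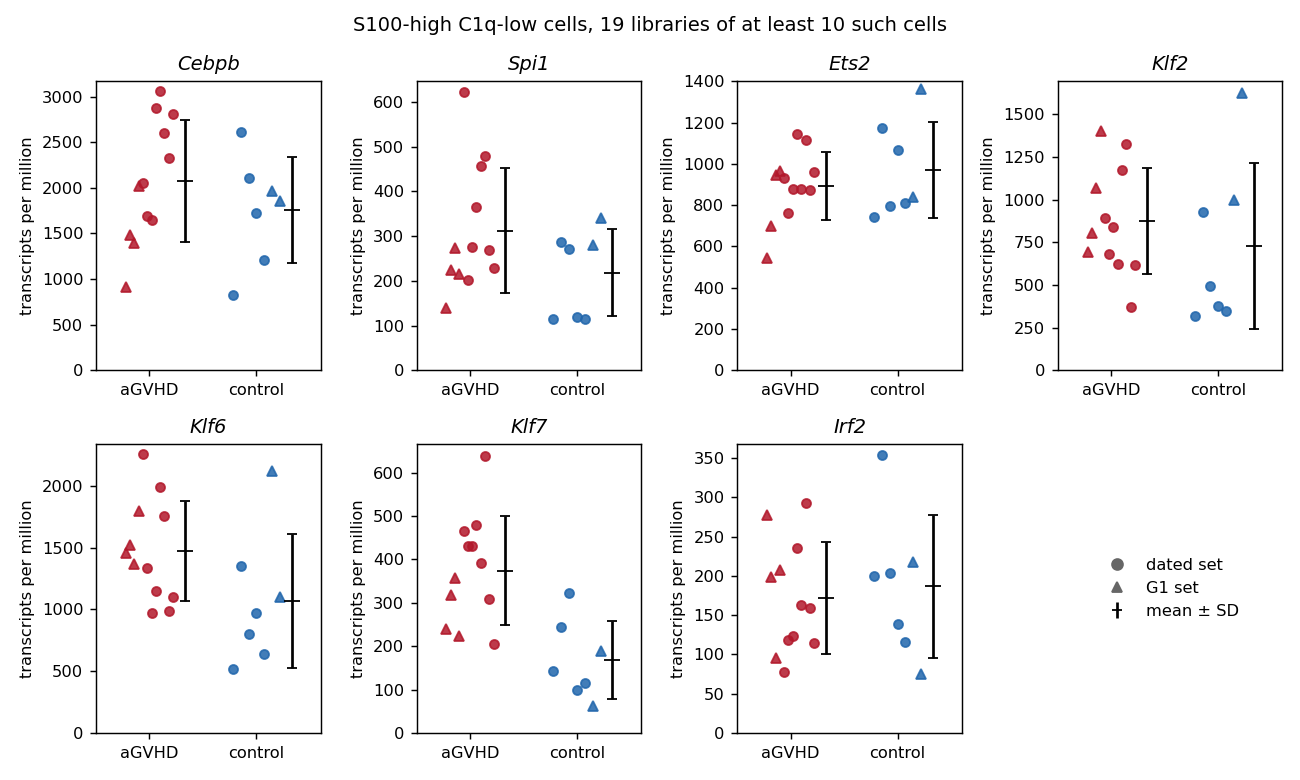
Level of each gene within S100-high C1q-low cells (vertical axis, CPM), for 12 aGVHD libraries on the left and 7 control libraries on the right; circles are the dated set, triangles the G1 set, and bars the mean ± SD. Klf7 is the gene whose groups overlap least, with aGVHD from 206 to 638 and control from 62.3 to 322.

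The cell classes compared come from the same library and share its batch, and the class is set by counts of S100 and C1q genes alone. Depth per cell differed between classes, as given below, and the S100 minimum was not scaled to depth. How the listed genes differ between classes was tested in the 19 libraries (12 aGVHD, 7 control) where both classes had 5 or more cells. Levels over all kept cells and in S100-high C1q-low cells were already seen when the genes were picked. The p-values of listed genes here and in the class comparisons below are therefore not independent of that choice. In S100-high C1q-low cells, compared with the other kept cells of the same library, Cebpb, Spi1, Ets2 and Klf2 were higher, while Klf6 and Klf7 did not pass the test. Klf2, which holds back inflammatory activation, rose most. It was at 315, 807 and 1626 CPM (lowest, median, highest) in S100-high C1q-low cells and at 122, 398 and 1185 in other cells, and it was higher in 17 of 19 libraries. Its log2 fold change was 0.80 (SE 0.15; adjusted p = 6.6e-05, limma). Spi1 was at 115, 272 and 622 in S100-high C1q-low cells and at 61.0, 152 and 318 in other cells, higher in 17 of 19 libraries (log2 fold change 0.68, SE 0.17; adjusted p = 0.0012, limma).

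Ets2 was at 544, 879 and 1361 CPM in S100-high C1q-low cells and at 74.3, 517 and 945 in other cells. It was higher in 17 of 19 libraries, and the log2 fold change was 0.60 (SE 0.15; adjusted p = 0.0013, limma). Cebpb was at 830, 1964 and 3061 in S100-high C1q-low cells and at 534, 1394 and 2260 in other cells, and it was higher in 18 of 19 libraries. Its log2 fold change was 0.43 (SE 0.10; adjusted p = 0.00057, limma). For all 4 genes the ranges of the classes overlapped across libraries, and the difference stood within libraries. Klf6 had a log2 fold change of 0.14 (95% interval -0.11 to 0.40) and Klf7 of 0.33 (-0.11 to 0.76). Irf2 was under the low-count filter and was not tested; it was at 75.6, 163 and 354 in S100-high C1q-low cells and at 45.8, 109 and 249 in other cells, higher in 16 of 19 libraries.

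The 4 called of 6 tested stand beside 28% of all 831 genes tested that were called higher in this comparison, and 57.8% called in either direction, so a call here was common. The median log2 fold change was 0.51 over the 6 genes and 0.00 over all genes. The calls of higher and lower genes split 233 to 247; with scaling to the total alone the median of all genes moved to 0.11 and the split was 278 to 194, and with scaling against a single sum they were -0.15 and 167 to 309. Under both, the 4 genes stayed called and higher, and relative to the median of all genes their values kept within 0.67 to 0.68 for Spi1 and 0.80 to 0.81 for Klf2. Spi1 (log2 fold change 0.63, limma adjusted p = 0.12) and Ets2 (0.56, 0.090) lost the call in the G1 set alone. Spi1 was under the low-count filter in the dated set alone, in control libraries alone and under the quality filter (cells of very high total or high Kcnq1ot1 left out), so it was called in neither title set alone. Ets2 also lost the call under the quality filter (0.39, 0.058). The difference of the class effect between sets was itself tested: 0 of 831 genes were called by limma, and the adjusted p of the 6 genes lay between 0.76 and 0.995. In aGVHD libraries alone and in control libraries alone the log2 fold changes were 0.78 and 0.84 for Klf2, 0.50 and 0.80 for Ets2, and 0.35 and 0.55 for Cebpb. S100-high C1q-low cells were deeper, with a median of 1470 named-gene transcripts against 650 in other cells.

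**Figure D3:**
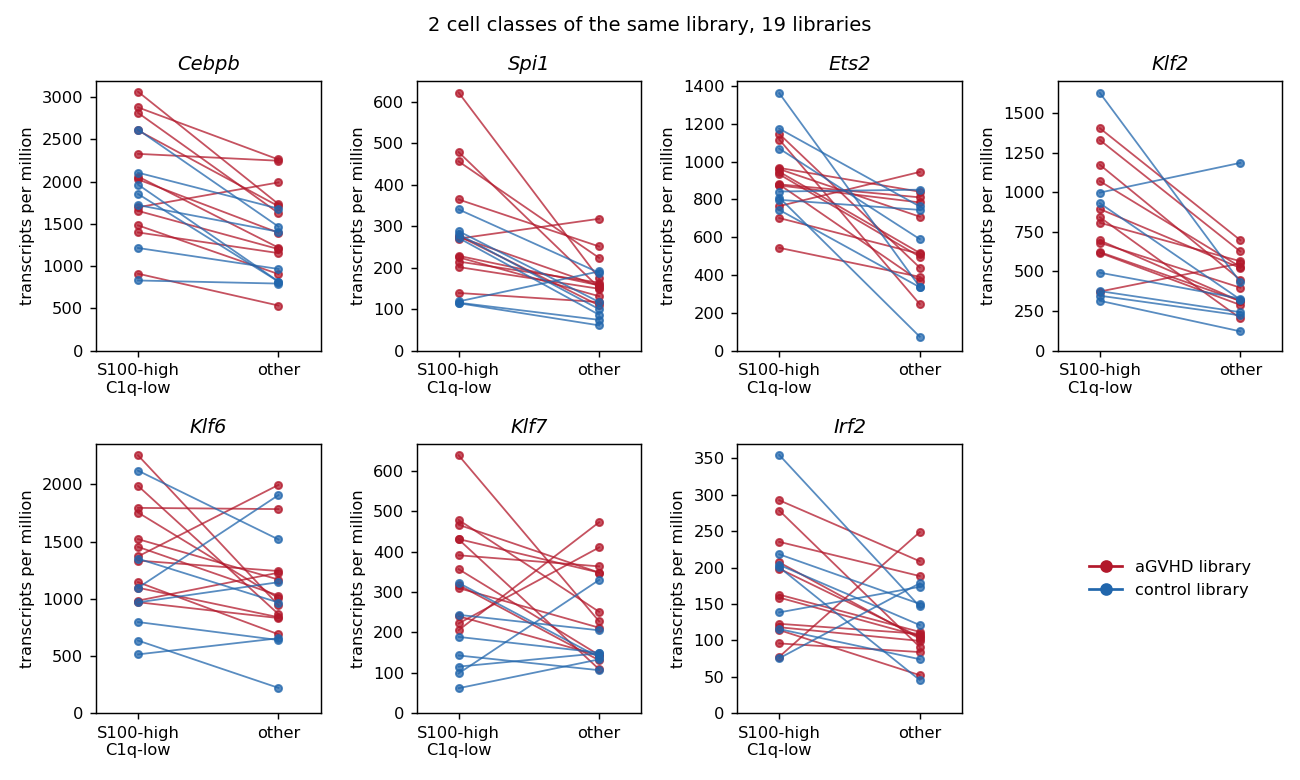
Level of each gene (vertical axis, CPM) in S100-high C1q-low cells on the left and other kept cells on the right, with a line for each of 19 libraries; red lines are aGVHD and blue lines control. Lines for Cebpb, Spi1, Ets2 and Klf2 fall from left to right in 17 or 18 of 19 libraries.

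At the class boundary Cebpb differed little, while the other genes had higher pooled levels just inside it. Among C1q-low cells, the 93 cells just inside it, with 5 or 6 S100 transcripts, had a pooled Cebpb level of 1666 CPM, and the 136 cells just outside it, with 3 or 4, had 1714. The Klf2 level was 865 just inside and 573 just outside, and that of Ets2 1018 and 821. Klf6 was at 1441 and 1141, Klf7 at 513 and 347, Spi1 at 234 and 193, and Irf2 at 261 and 143. These levels are pooled over cells and carry no test.

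Genes of the same families and known targets were read from the same lists, which were drawn up with earlier results of these data known. Beside the members, limma called Klf3 (log2 fold change 0.55, SE 0.17, adjusted p = 0.0074) higher in S100-high C1q-low cells among the 5 Krüppel-like genes tested of 12 listed, and Irf1, the activator that IRF2 opposes (0.50, SE 0.12, adjusted p = 0.00095), as the 1 interferon regulatory factor tested of 9. No ETS or C/EBP family gene outside the members passed the filter. Of 15 further granulocyte transcription factors 6 were tested and 3 rose, among them Mxd1, a MYC antagonist of maturing granulocytes (1.25, SE 0.14), and Csrnp1 (0.60, SE 0.17).

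Of 14 C/EBP targets 6 were tested and 5 rose. They were Lcn2, an iron-siderophore-binding granule protein (log2 fold change 1.82), Hp (1.32), Csf3r (0.87), Il1b (0.73) and Il1rn (0.38). Of 18 PU.1 targets 12 were tested, 7 rose and 2 fell. Csf3r, Tyrobp (0.72) and Cd14 (0.76) were among those that rose, and the 2 that fell were Csf1r, the M-CSF receptor of monocytes and macrophages (-1.15), and Cybb, a subunit of the phagocyte oxidase (-0.98). Of 5 ETS2 targets Mmp9 was tested and rose (0.72), and of 3 IRF2 targets tested Casp4 (0.60) and B2m (0.24) rose. These are differences between classes of cells and include markers of neutrophils, so they were not read as activity of a factor.

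The sort also held cells with at least 3 transcripts of the C1q genes, a macrophage marker set. In 12 libraries with at least 3 such cells, C1q-positive cells were compared with S100-high C1q-low cells of the same library. Ets2, Klf2 and Cebpb were lower in C1q-positive cells, and Klf6 was not called. Ets2 was at 114, 364 and 544 CPM (lowest, median, highest) in C1q-positive cells and at 544, 879 and 1361 in S100-high C1q-low cells, and it was lower in 12 of 12 libraries. Its log2 fold change was -1.24 (SE 0.23; adjusted p = 0.00014, limma). Klf2 was at 0, 288 and 788 in C1q-positive cells, with 2 libraries at 0, and at 315, 912 and 1626 in S100-high C1q-low cells. It was lower in 11 of 12 libraries (log2 fold change -1.54, SE 0.30, limma adjusted p = 0.00017).

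Cebpb was at 406, 1125 and 2330 CPM in C1q-positive cells and at 830, 1908 and 3061 in S100-high C1q-low cells, lower in 10 of 12 libraries (log2 fold change -0.60, SE 0.18, limma adjusted p = 0.0071). Klf6 was at 140, 1085 and 2568 in C1q-positive cells and at 515, 1412 and 2253 in S100-high C1q-low cells, lower in 7 of 12 libraries, and its log2 fold change of -0.16 had a 95% interval of -0.64 to 0.32. Spi1, Klf7 and Irf2 were under the low-count filter. They had 55, 39 and 44 transcripts in C1q-positive cells, and each had a lower level there in 10 of 12 libraries.

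The 3 called of 4 tested stand beside 31.4% of 439 genes called lower and 59% called in either direction. The median log2 fold change over all genes was -0.18 here, and relative to it the values were -1.06 for Ets2, -1.36 for Klf2, -0.42 for Cebpb and 0.02 for Klf6. Scaling against a single sum moved the median of all genes to 0.13, split the calls 160 higher to 93 lower in place of 121 to 138, and took Cebpb out of the call (-0.29, limma adjusted p = 0.18). The quality filter on cells, which left 240 genes to test, took out all 3 calls: Ets2 was then at -0.91 (limma adjusted p = 0.12), Klf2 at -0.46 (0.41) and Cebpb at -0.35 (0.27). C1q-positive cells were few, 43 in aGVHD and 27 in control, and their median total of 7909 transcripts stood against 2482 in S100-high C1q-low cells. Of these 70 cells 32 also had at least 5 S100 transcripts, and Csf3r was counted in 76.7% of C1q-positive cells in aGVHD and 88.9% in control. Their pooled S100a8 level was 4925 CPM in aGVHD and 391 in control; what part cells captured together had was not tested. Of the C/EBP targets 5 were tested here and 4 fell, among them Csf3r (-1.80) and Il1b (-1.32). Of the PU.1 targets 12 were tested; Csf1r (1.99) and Cybb (2.02) rose and 6 fell. Mxd1 (-2.14), Mmp9 (-1.96) and Irf1 (-0.98) also fell.

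**Figure D4:**
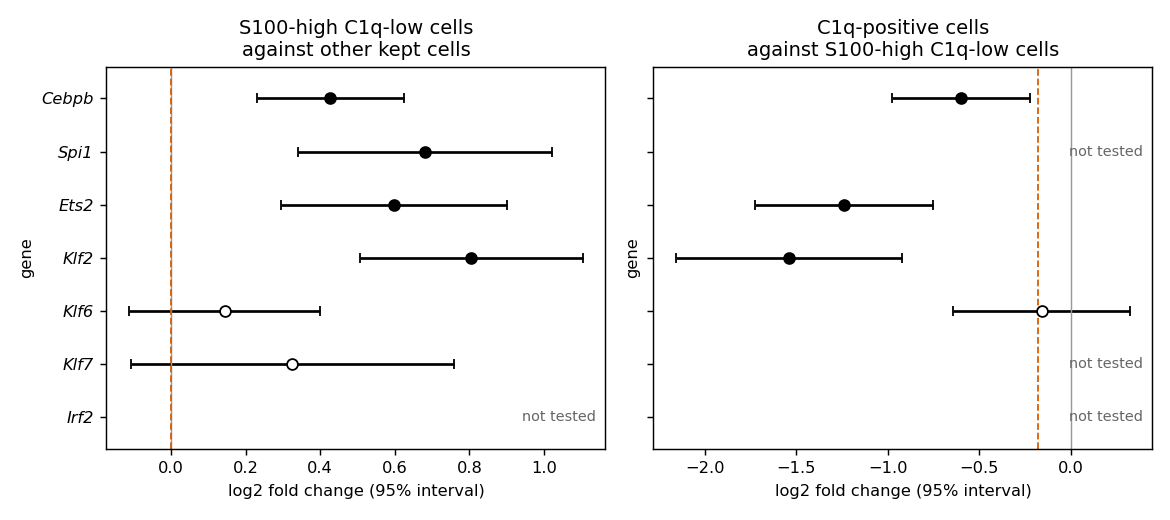
Log2 fold change of each gene (horizontal axis) with its 95% interval, on the left for S100-high C1q-low cells against other kept cells (19 libraries) and on the right for C1q-positive cells against S100-high C1q-low cells (12 libraries); filled points passed an adjusted p of 0.05 and the dashed line is the median of all genes tested. Cebpb, Ets2 and Klf2 lie above 0 on the left and below 0 on the right, and Klf6 has an interval across 0 in both.

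**Figure D5:**
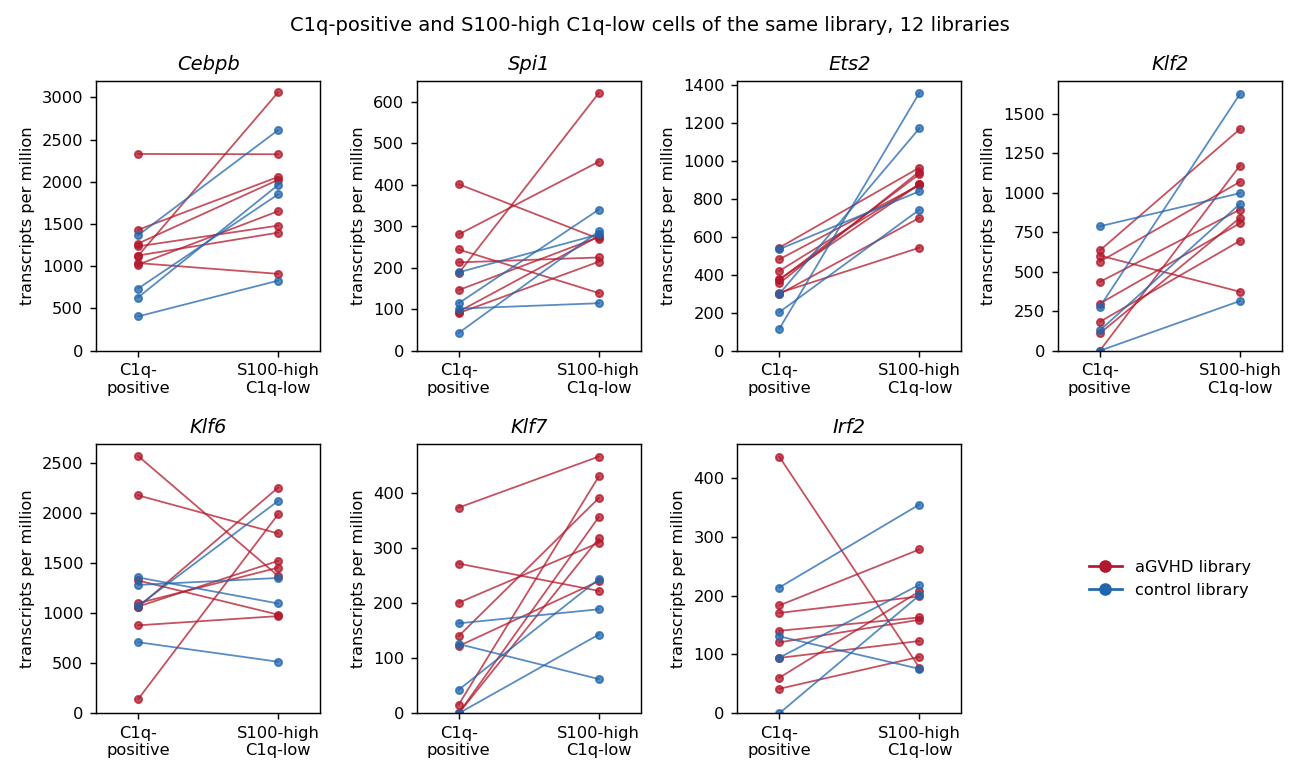
Level of each gene (vertical axis, CPM) in C1q-positive cells on the left and S100-high C1q-low cells on the right, with a line for each of 12 libraries; red lines are aGVHD and blue lines control. Ets2 is lower in C1q-positive cells in 12 of 12 libraries and Klf2 in 11 of 12.

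Lcn2 is the gene of the study's title. Among S100-high C1q-low cells thinned to 500 transcripts, those with an Lcn2 transcript were compared with those without in 9 aGVHD libraries. Cebpb was at 1073, 2154 and 4227 CPM (lowest, median, highest) in Lcn2-positive cells and at 1620, 2334 and 3492 in Lcn2-negative cells, and it was higher in 3 of 9 libraries. The log2 fold change was -0.06 (95% interval -0.49 to 0.38). Klf6 had a log2 fold change of 0.04 (-0.47 to 0.55). Neither was called, beside 22.6% of 106 genes tested, and the other 5 genes were too sparse to test. Hp was called higher (0.67, SE 0.25, limma adjusted p = 0.046). The directions of Cebpb and Klf6 turned under other settings, and with cells thinned to 1000 transcripts Cebpb was at 0.40 and Klf6 at -0.15, again not called.

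Cells with at least 2 transcripts of the specific granule genes Ngp, Ltf and Camp, which mark less mature neutrophils, could be set against cells with none in 2 libraries only, both aGVHD. Ets2 was at 322 and 372 CPM in granule-gene-positive cells, on 2 transcripts in all, and at 1232 and 1384 in granule-gene-negative cells. Its log2 fold change was -1.50 (SE 0.38; adjusted p = 0.0054, limma), beside 32.5% of 120 genes called. The call was lost under each of the 4 settings that changed the scaling, the weights or the depth of thinning, with adjusted p from 0.053 to 0.27. Klf2 had 1 transcript in granule-gene-positive cells and 39 in granule-gene-negative cells and was not tested. Cebpb had 1931 and 2605 in granule-gene-positive cells and 1703 and 2391 in granule-gene-negative cells.

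Across the 19 libraries, levels in S100-high C1q-low cells were compared between genes after group and title set were removed; the values describe these libraries and carry no test. Pearson's r among Cebpb, Spi1, Ets2, Klf2 and Klf6 ran from 0.31 to 0.77 over their 10 pairs, the highest being Spi1 with Klf2. Klf7 stood lower with these 5 (0.08 to 0.55), and Irf2 lower still with the other 6 (-0.19 to 0.16). These values describe libraries of unequal depth and share its effects. Among 871 genes, the pattern of Cebpb was most like that of Fcer1g, the Fc receptor gamma chain (r = 0.83), and Tgif1 (0.83). Spi1 was most like Slfn1 (0.82) and Pim1 (0.80), and Ets2 most like Smox and Litaf (both 0.78). G0s2, a neutrophil marker that inhibits adipose triglyceride lipase, was most like both Klf2 (0.80) and Klf6 (0.80), and Vsir (0.80) and Cd300lf (0.73) were most like Klf7.

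The listed genes were also looked for in the barcodes that seem to have received no cell, which hold the free or misassigned transcripts of a library. Per 100 such barcodes there were 1.75 transcripts of Cebpb, 2.46 of Ets2, 3.93 of Klf6, 1.37 of Klf7 and 0.0474 of Spi1. Per 100 kept cells there were 283 of Cebpb, 131 of Ets2, 215.0 of Klf6, 47.4 of Klf7 and 37.2 of Spi1. Among the transcripts of the empty barcodes the Klf7 level averaged 150 ± 122 CPM in aGVHD libraries and 275 ± 308 in control libraries (SD, n = 12 and 10), on 14 and 15 transcripts.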

How the data were processed

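The authors deposited 1 table per library of genes by barcodes. Its values are fractional transcript estimates, of the unit other: each of 1419098 values above 0 equals what a whole number of identifiers out of 4096 gives after correction for repeats. They were rounded here to whole transcripts; limma was kept because the deposited values are estimates. The tools named are BWA 0.6.2-r126 and bcl2fastq 2.17.1.14, per the submitters' processing notes. The genome build and the counting are not given in the sources used here. The listed genes and the gene lists were chosen with earlier results of these data known.

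Barcodes of at least 500 transcripts were kept; unnamed gene models (31.6% to 77.9% of transcripts of kept cells in a library) counted toward that minimum and were left out of sums and fits. No doublet caller was run; as an alternative, a quality filter left out 96 cells, those whose total exceeded 4 medians of the library or whose Kcnq1ot1 share exceeded 2%. In each library the block of 96 barcodes with more transcripts was taken as used, and the remaining 96 were taken as empty. The empty barcodes held 3275 to 16554 named-gene transcripts in aGVHD libraries and 3325 to 12539 in control libraries. Kept cells held 65973 to 236050 and 8771 to 132944. The share was large in some shallow control libraries, with 6439 beside 18490 in control 9. Sums per library were tested with limma 3.58.1 (R 4.3.3) on log2 CPM with voom weights, a low-count filter (10 transcripts in a sum of median size, 15 over all sums) and an adjusted p (Benjamini-Hochberg) of 0.05. Group comparisons had title set as a covariate, and class comparisons the library as a block. The S100 and C1q genes, Lcn2, or the granule genes that define a class were left out of its test. Trimmed-mean scaling (0.3 of ratios, 0.05 of levels) was made against the pooled profile of all sums. This was chosen after seeing the data, since the usual single sum fell on a shallow control sum and shifted all values of the class comparisons together; the single sum is kept as an alternative. The code was tested on simulated data. All listed genes are named in each comparison, list genes where called (at most 5 per list), and for each gene the 2 of highest correlation of log2(CPM + 10). Some results under this rule are not reported here.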

Additional observations from a re-analysis of the deposited data

How the results depend on the processing

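Over the class comparisons, 280 of 309 values of the listed genes under alternatives kept their direction and their side of the threshold, 13 lost the call and 16 turned in sign. Most of the 309 come from leaving out 1 library, which keeps nearly all the data. All 13 lost calls came from the other alternatives. Those that turned were not called in the original comparison. Klf6 in S100-high C1q-low against other cells went to -0.0011 with scaling against a single sum, -0.076 in the G1 set and -0.11 with classes set on thinned cells, and Klf7 there to -0.027 under the quality filter. Klf6 in C1q-positive against S100-high C1q-low cells went to 0.15 with the single sum. For Lcn2-positive against Lcn2-negative cells, Klf6 went to -0.38 with no low-count filter, -0.084 on log2(CPM + 10) and -0.15 thinned to 1000 transcripts, and Cebpb to 0.40 thinned to 1000; leaving out 1 library each gave -0.15 to 0.14 for Klf6 and -0.12 to 0.045 for Cebpb. In granule-gene-positive against granule-gene-negative cells Cebpb went to -0.54 with no filter and -0.67 thinned to 1000. The causes were not tested.

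The number of genes called moved more. Of all kept cells, aGVHD against control, 142 were called in the original, 1919 with no filter, 53 in the dated set, 9 in the G1 set, 17 under the quality filter, 8 in libraries of at least 20 kept cells, and 59 (without control 1) to 188 (without aGVHD 1) leaving out 1 library. The split of higher against lower calls was 68 to 74, and 97 to 62 with scaling to the total. In S100-high C1q-low cells 0 were called, 42 with no filter and 0 to 1 leaving out 1 library. S100-high C1q-low against other cells gave 480, 874 with no filter, 271 in the G1 set and 241 under the quality filter. C1q-positive against S100-high C1q-low cells gave 259, 6307 with no filter and 81 under the quality filter. With classes set on thinned cells, Cebpb (-0.94, limma adjusted p = 0.13) and Ets2 (-1.30, 0.082) lost the call there. Lcn2-positive against Lcn2-negative cells gave 24, 5923 with no filter and 49 thinned to 1000. Granule-gene-positive against granule-gene-negative cells gave 39, 20 with scaling to the total, 17 with the single sum, 254 with no filter and 25 with all gene models; leaving out 1 of its 2 libraries leaves no test.

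The labels do not say whether title numbers pair the libraries, and no pairing was used in the original comparisons. Same-numbered libraries of the dated set had correlations of -0.04 to 0.19 over all kept cells, which cannot settle it. A replicate block on title number gave 22 calls against 8 without it, and in S100-high C1q-low cells 3 against 2. Depth limits Spi1, Klf7 and Irf2 most, with 514, 656 and 374 transcripts in all kept cells.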
